A study of Homo sapiens with 12 samples.

Results

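The genes described here are 8 members of the PI3K, AKT and FOXO3 signalling axis: PIK3CA, PIK3CB and PIK3CD, PIK3R1 and PIK3R2, AKT1 and AKT2, and FOXO3. They were chosen by name, and every measured CpG between 1500 bp before and 1500 bp after the annotated hg38 gene span was taken. That gave 2209 CpGs of 5-methylcytosine (5mC) out of 3689712 in the table and 2172 CpGs of 5-hydroxymethylcytosine (5hmC) out of 3534314. The 8 are among 15842 genes with a listed transcription start, of which 14659 had at least 5 CpGs of 5mC over the span. The cells were SV-HUC-1, a human urothelial epithelial line immortalised with SV40. Cells received DCBQ (2,6-dichloro-1,4-benzoquinone, a halobenzoquinone formed when drinking water is disinfected) or, as the control, a blank solution, each for 3 days. RRBS (bisulfite sequencing of a CpG-rich part of the genome) was run on 3 libraries per condition, its oxidative form on 3 more, and the deposited tables hold 3 DCBQ and 3 control columns for each mark. Nothing in the labels says that the 3 samples of a condition were separate cultures. A p-value here therefore measures sample spread that may be technical only. SV-HUC-1 is a single immortalised line, and no label gives the dose of DCBQ.

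Class I phosphoinositide 3-kinases (PI3K) are pairs of a catalytic and a regulatory subunit that, when growth factor receptors are active, add a phosphate to a membrane lipid. The lipid recruits AKT kinases, which are then activated and phosphorylate many substrates. One of these is the transcription factor FOXO3, which AKT keeps out of the nucleus and which otherwise drives genes of antioxidant defence, cell cycle arrest and cell death. In urothelial cancers the pathway is often altered, most often through activating changes in PIK3CA. In most human genes 5mC is low at a CpG-rich transcription start and high along the body, while 5hmC, which TET dioxygenases make from 5mC, is sparse in cultured cells.

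The upstream sequences of 4 members show what the assay read at the starts of these genes. Each is the 250 bases before the first listed start, from RefSeq on GRCh38.p14, written on the gene's own strand, with the CpGs measured for 5mC in capitals. RRBS reads DNA beside CCGG sites, so coverage differs between starts. FOXO3 lies at chr6:108559575-108559824 on the plus strand, with 20 of 42 CpGs measured. PIK3R2 lies at chr19:18152913-18153162 on the plus strand, with 9 of 30 measured, and is shown because the last capitals but one hold its CpG with the smallest p, described with the single CpGs. AKT1 lies at chr14:104795749-104795998 on the minus strand, with 34 of 39 measured. AKT2 lies at chr19:40285346-40285595 on the minus strand and is shown because it holds 18 CpGs, no CCGG and 0 measured CpGs.
FOXO3: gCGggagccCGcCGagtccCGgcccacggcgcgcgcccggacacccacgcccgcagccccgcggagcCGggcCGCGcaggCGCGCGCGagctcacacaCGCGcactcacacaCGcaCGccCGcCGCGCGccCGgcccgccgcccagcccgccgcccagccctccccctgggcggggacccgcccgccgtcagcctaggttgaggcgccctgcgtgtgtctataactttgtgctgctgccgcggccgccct
PIK3R2: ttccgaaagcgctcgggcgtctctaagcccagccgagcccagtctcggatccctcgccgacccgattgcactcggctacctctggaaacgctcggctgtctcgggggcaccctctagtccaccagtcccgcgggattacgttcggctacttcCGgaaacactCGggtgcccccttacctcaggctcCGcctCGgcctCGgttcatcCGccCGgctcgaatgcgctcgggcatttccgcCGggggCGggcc
AKT1: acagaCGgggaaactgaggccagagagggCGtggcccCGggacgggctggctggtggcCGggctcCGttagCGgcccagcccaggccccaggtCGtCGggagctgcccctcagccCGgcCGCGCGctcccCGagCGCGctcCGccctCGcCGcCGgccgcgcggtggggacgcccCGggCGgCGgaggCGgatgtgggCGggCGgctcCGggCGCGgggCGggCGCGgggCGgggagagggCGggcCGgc
AKT2: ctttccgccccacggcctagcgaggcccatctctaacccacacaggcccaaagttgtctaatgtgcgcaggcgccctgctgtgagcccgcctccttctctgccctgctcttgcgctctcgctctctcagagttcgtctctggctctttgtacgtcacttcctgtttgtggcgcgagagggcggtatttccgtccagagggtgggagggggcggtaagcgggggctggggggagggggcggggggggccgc
Over the measured capitals, mean 5mC was 1.88% in DCBQ and 1.05% in control cells at FOXO3, 1.03% in DCBQ and 2.59% in control cells at PIK3R2, and 1.69% in DCBQ and 1.35% in control cells at AKT1. The PIK3R2 mean includes the CpG with the smallest p, for which that sequence was picked, so it is not a separate result.

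The 300-base promoter windows (250 before to 50 after the first listed start) were searched on both strands, overlapping matches included, for 7 motifs. GGGCGG, the core letters of an SP1 site, occurred in all 8 windows, from 1 match at PIK3CA to 7 at AKT1, and in 45.0% of the 35116 promoters of the table. GTAAACA, a forkhead motif, was in PIK3CA alone of the 8 and in 3.42% of promoters. CCGGAAG was in PIK3CA and PIK3R2 (10.3% of promoters), CCAAT in PIK3CA and PIK3CB (34.6%), and TGACGT in AKT2 alone of the 8 (7.98%). CACGTG and TATAAA were in 0 of the 8 windows and in 7.26% and 11.5% of promoters. A match describes letters in the window and nothing about binding.

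Over all measured CpGs of the table, 5mC averaged 54.13% ± 0.1 in DCBQ and 54.54% ± 0.15 in control cells (SD, n = 3 each), and 5hmC 3.47% ± 0.14 in DCBQ and 3.37% ± 0.06 in control cells. The read count behind each level is unknown, so no counting interval can be given. Of 14 markers listed to check the cell label, 4 had a start with at least 5 CpGs. Mean start 5mC was 2.07% ± 0.65 in DCBQ and 2.24% ± 0.52 in control cells at KRT5 (SD). With DCBQ first in each pair, it was 56.84% ± 5.24 and 52.23% ± 15.36 at GATA3, and 0.74% ± 0.73 and 1.22% ± 0.51 at VIM. At the T cell gene CD3D, over 7 CpGs, it was 77.4% ± 3.21 and 84.14% ± 1.48 (limma adjusted p = 0.587). The groups overlapped at all of these but CD3D. A methylation level is no measure of expression, so the label was not checked beyond these values.

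At the starts of all 8 genes the DCBQ and control samples overlapped. A start is the window from 1500 bp before to 500 bp after the first listed start. Among the 8, 0 had non-overlapping groups for 5mC, against 8.14% of all 12206 starts with DCBQ lower and 3.83% with DCBQ higher. None was called (limma adjusted p from 0.907 at AKT2 to 0.995 at PIK3CA), and 0 of all starts were called, with 816 (6.69%) at an unadjusted p under 0.05. The difference was below 0 at 5 of the 8 and above 0 at 3, against 59.2% of all starts below 0. With each sample centred on its mean it was below 0 at 3 and above 0 at 5, against 44.0% below 0. Centring shifted the median of all starts by 0.154 points. The uncentred median was -0.095 points over the 8 against -0.091 over all starts.

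Among the catalytic subunits, PIK3CA, the alpha subunit, had start 5mC of 0.91%, 1.11% and 1.33% in DCBQ and 1.08%, 1.14% and 1.11% in control cells. PIK3CB, the beta subunit, had 0.92%, 1.47% and 1.33% in DCBQ and 1.74%, 1.13% and 1.55% in control cells. PIK3CD, the delta subunit best known from leukocytes, had 1.08%, 1.27% and 1.09% in DCBQ and 1.06%, 1.32% and 0.9% in control cells. All of these starts were nearly free of 5mC in both conditions, and the groups overlapped at each.

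The regulatory subunit PIK3R1, which stabilises and restrains the catalytic subunits, had 1.05%, 1.38% and 1.51% in DCBQ and 2.06%, 1.33% and 1.36% in control cells. PIK3R2, its close relative, had 5.18%, 4.88% and 4.88% in DCBQ and 4.94%, 5.72% and 4.67% in control cells. The PIK3R2 level came from its flank: 20 CpGs from 1500 to 500 bp before the start averaged 17.77% in DCBQ and 16.78% in control cells, and the 62 within 500 bp averaged 0.86% in DCBQ and 1.35% in control cells. That window also borders MAST3, the neighbouring kinase gene whose annotation overlaps the span taken here.

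AKT1 had start 5mC of 6.94%, 7.49% and 7.2% in DCBQ and 7.23%, 7.36% and 7.23% in control cells. AKT2, the isoform best known for insulin-stimulated glucose uptake, had 17.47%, 16.35% and 17.88% in DCBQ and 17.45%, 18.13% and 17.85% in control cells. AKT2 was the highest of the 8, and again the flank carried it, with 83.85% ± 4.19 in DCBQ and 86.69% ± 1.27 in control cells (SD) over 12 CpGs from 1500 to 500 bp before the start. Within 500 bp its 50 CpGs averaged 1.24% in DCBQ and 1.28% in control cells. FOXO3 had 0.94%, 1.71% and 0.94% in DCBQ and 1.01%, 1.12% and 1.12% in control cells. From high to low over all 6 samples the order was AKT2, AKT1, PIK3R2 and then the other 5, and those 5 overlapped one another.

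**Figure D1:**
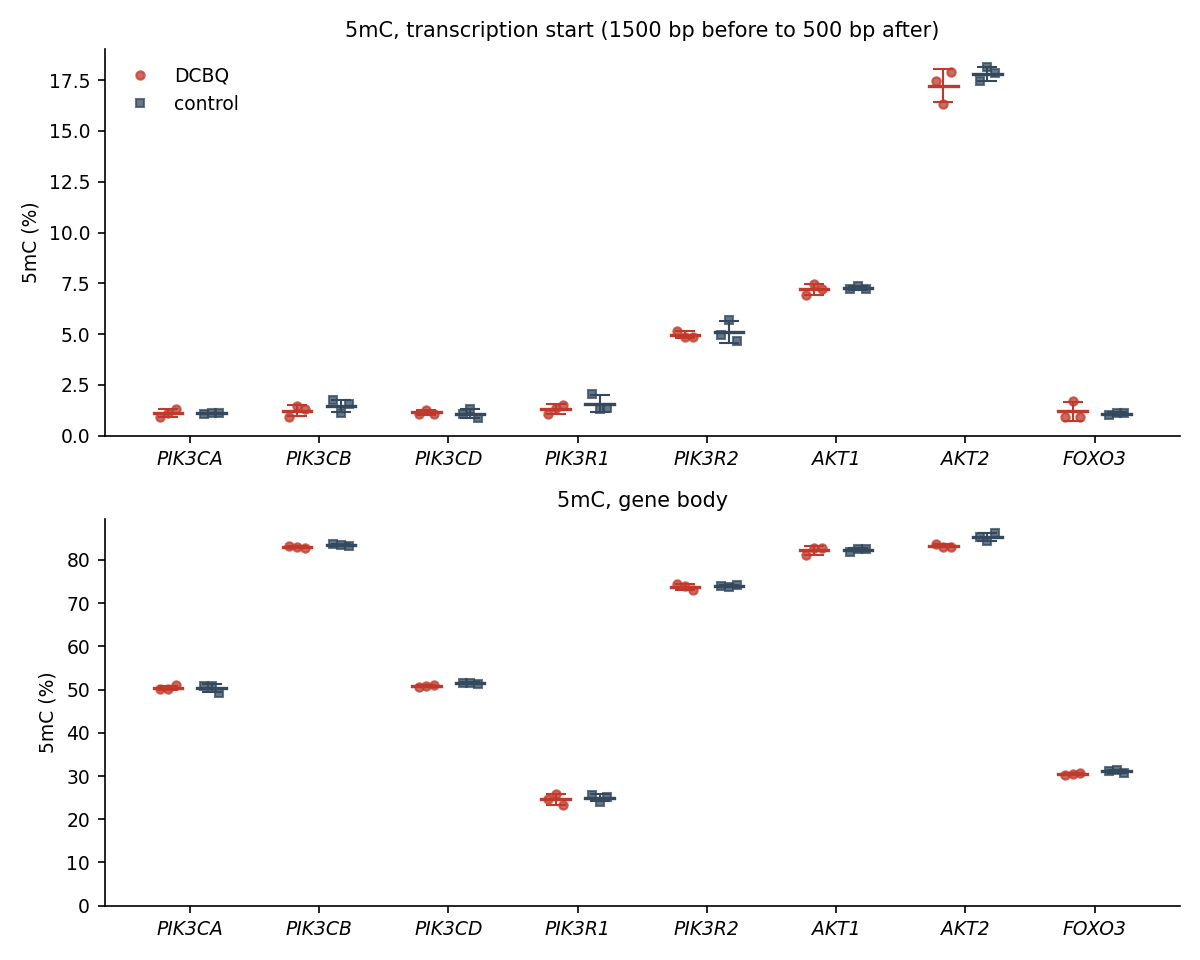
5mC in percent (vertical axes) of the 8 genes at the start (upper plot) and in the body (lower plot). Points are samples, horizontal bars means and whiskers SD (n = 3 per group), with DCBQ on the left of each pair. AKT2 has the highest start level, 17.23% in DCBQ and 17.81% in control cells. In control cells the bodies run from 24.94% at PIK3R1 to 85.33% at AKT2.

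In the gene bodies, 5mC was slightly lower in DCBQ at 7 of the 8 genes, against 69.4% of 13166 bodies, but at 4 of the 8 once each sample was centred on its mean over all bodies. Centring moved the median difference of all bodies by 0.433 points, which left it at 0.046 instead of -0.387, and 47.5% of bodies were then lower. The body runs from 500 bp inside the first listed start to the other end of the gene. Groups were apart with DCBQ lower at 3 of the 8, namely AKT2, PIK3CD and FOXO3, against 13.5% of all bodies, and with DCBQ higher at 0, against 2.23%. The median difference over the 8 was -0.395 points, and after centring AKT2 alone of the 8 was apart, against 5.49% of bodies lower. No body passed (0 of 13166 called, 1107 at an unadjusted p under 0.05, or 8.41%), and of the 8 only AKT2 was under 0.05 before adjustment.

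AKT2 had the largest 5mC difference of the 8 bodies. Its 100 CpGs read 83.73%, 83.09% and 83.08% in DCBQ and 85.41%, 84.32% and 86.25% in control cells, so every DCBQ sample lay below every control sample. The difference was -2.03 points (SE 0.62; limma adjusted p = 0.582), and it ranged from -2.53 to -1.57 with each sample left out in turn. With groups apart, leaving a sample out could not reverse its sign. By p it stood at rank 390 of the 13166 bodies. Of its 100 body CpGs, 92 lay more than 5000 bp inside the gene. They averaged 83.74% ± 0.67 in DCBQ and 85.94% ± 0.85 in control cells (SD). The 8 CpGs from 500 to 5000 bp read 78.18% ± 4.01 in DCBQ and 78.24% ± 2.39 in control cells. They are too few and too variable to show where in the body the difference lay. Among the 92, differences at single CpGs were uneven. The CpGs at 40254398, 40268916 and 40254452, picked for the size of their difference, differed by -31.23, -30.93 and -26.53 points. Their SEs were 14.3, 8.95 and 9.29 points, with a limma adjusted p of 0.928 at each. Single CpGs with SEs this large do not place the difference within the body. A tile of 5 CpGs differed by -13.05 points and is described with the tiles. Over the whole span 86 of 145 CpGs that varied were lower in DCBQ, against 53.2% of all such CpGs.

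PIK3CD had 317 body CpGs, which read 50.67%, 50.73% and 50.98% in DCBQ and 51.63%, 51.51% and 51.22% in control cells. The groups did not overlap, and the difference was -0.66 points (SE 0.37; limma adjusted p = 0.655). FOXO3 had 258 body CpGs, at 30.31%, 30.58% and 30.61% in DCBQ and 31.26%, 31.28% and 30.63% in control cells. Its groups were also apart, though DCBQ sample 3 and control sample 3 differed only in the last decimal printed, with a difference of -0.56 points (SE 0.34; limma adjusted p = 0.685). This value rests on a stretch shared with a copy of the gene and is taken up below.

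The other bodies overlapped between groups. PIK3CB, with 262 CpGs, averaged 82.94% ± 0.27 in DCBQ and 83.4% ± 0.23 in control cells (SD). AKT1 averaged 82.18% ± 0.93 in DCBQ and 82.36% ± 0.37 in control cells, and PIK3R2 73.77% ± 0.64 in DCBQ and 73.94% ± 0.24 in control cells. PIK3CA averaged 50.35% ± 0.53 in DCBQ and 50.34% ± 0.91 in control cells, the only positive difference (0.01 points). PIK3R1 had the lowest body, 24.62% ± 1.23 in DCBQ and 24.94% ± 0.8 in control cells, at the 8.9 percentile of all bodies.

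Body levels split by position more than by condition. In PIK3CA, 28 CpGs from 500 to 5000 bp inside averaged 1.27% in DCBQ and 1.06% in control cells, and 37 CpGs farther in averaged 87.5% in DCBQ and 87.63% in control cells. PIK3R1 had 1.25% in DCBQ and 1.4% in control cells over its 33 nearer CpGs, and 50.32% in DCBQ and 50.85% in control cells over 30 farther ones. AKT1 had 13.8% in DCBQ and 14.64% in control cells over 18 nearer CpGs, and 88.5% in DCBQ and 88.61% in control cells over 195 farther ones. PIK3CB was methylated sooner, with 63.65% in DCBQ and 62.63% in control cells over its 40 nearer CpGs. Its 222 farther CpGs read 86.53%, 86.49% and 86.23% in DCBQ and 87.36%, 87.18% and 86.9% in control cells, apart by -0.73 points, a split that carries no test.

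Over the whole span with its flanks, 5mC was apart with DCBQ lower at 3 of the 8 genes, against 13.6% of 14659 spans, and with DCBQ higher at 0, against 2.48%. After centring, which moved the median of all spans by 0.317 points, AKT2 alone of the 8 was apart with DCBQ lower, by -1.16 points, against 5.64% of spans. Limma called 0 of all spans, and 1306 (8.91%) had an unadjusted p under 0.05, among them 1 of the 8. AKT2 had 58.37%, 57.55% and 58.12% in DCBQ and 59.4%, 58.99% and 60.07% in control cells, a difference of -1.47 points (SE 0.43; limma adjusted p = 0.482). PIK3CD differed by -0.53 points (SE 0.27; limma adjusted p = 0.619), with the 3 DCBQ samples between 48.31% and 48.35% and the controls between 48.64% and 49.05%. PIK3CB differed by -0.42 points (SE 0.35; limma adjusted p = 0.728), with 67.92% to 68.28% in DCBQ and 68.38% to 68.79% in control cells. The PIK3CD span begins 24473 bp before its first listed start and includes 66 CpGs there, which averaged 68.02% in DCBQ and 68.47% in control cells. It overlaps the end of CLSTN1 and the antisense RNAs PIK3CD-AS1 and PIK3CD-AS2, and a CpG level cannot be assigned to either gene.

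For 5hmC, levels at the starts were near the floor of the table. Among the 8 starts, 0 had groups apart, against 4.3% of 12128 starts with DCBQ lower and 5.4% with DCBQ higher, and the smallest limma adjusted p was 0.953. Limma called 0 of all starts, with 577 (4.76%) at an unadjusted p under 0.05 and 0 of the 8 among them. Start means ran from 0.59% ± 0.06 in DCBQ and 0.5% ± 0.1 in control cells (SD) at FOXO3 to 1.71% ± 0.91 in DCBQ and 1.48% ± 0.34 in control cells at AKT2. AKT1 had 1.81%, 1.11% and 1.43% in DCBQ and 0.89%, 1.23% and 1.13% in control cells, which overlap. The other 5 lay between 0.54% and 0.96% in both groups.

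In the bodies 5hmC was higher in DCBQ at 6 of the 8 genes and lower at 2, against 43.6% of all bodies lower. The counts for the 8 were the same after centring, when 51.7% of all bodies were lower. Groups were apart with DCBQ higher at FOXO3 and PIK3CD, 2 of the 8 against 6.42% of 13062 bodies, and with DCBQ lower at 0, against 3.47%. No body passed (0 called; 706 at an unadjusted p under 0.05, or 5.4%), and 2 of the 8 were under 0.05 before adjustment. The median difference was 0.239 points over the 8 and 0.086 over all bodies.

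FOXO3 had 5hmC of 3.08%, 3.66% and 3.3% in DCBQ and 1.96%, 2.13% and 1.85% in control cells over 253 CpGs. Each DCBQ sample was above each control sample by more than the range within either group. The difference was 1.37 points (SE 0.33; limma adjusted p = 0.736), rank 73 of 13062 by p, and lay between 1.21 and 1.5 with each sample left out in turn. With groups apart, its sign could not reverse there. Over the whole span it was 1.01 points (SE 0.23; limma adjusted p = 0.919), rank 44 of 14585.

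PIK3CD had body 5hmC of 2.99%, 2.63% and 2.61% in DCBQ and 1.92%, 2.11% and 2.05% in control cells over 314 CpGs. The groups were apart by 0.72 points (SE 0.29; limma adjusted p = 0.918). The 273 CpGs over 5000 bp inside read 2.9% ± 0.32 in DCBQ and 2.06% ± 0.12 in control cells (SD), while the 41 nearer ones read 1.71% ± 0.66 in DCBQ and 1.83% ± 0.49 in control cells. Over the whole span FOXO3 and PIK3CD were again the 2 of 8 apart with DCBQ higher, against 6.47% of spans, with 0 lower against 3.48%, and limma called 0 of all spans (754, or 5.17%, at an unadjusted p under 0.05). PIK3CD was higher by 0.43 points (SE 0.25; limma adjusted p = 0.966).

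The remaining bodies overlapped. PIK3CB had 3.69% ± 0.44 in DCBQ and 3.16% ± 0.29 in control cells (SD), AKT2 3.5% ± 0.26 in DCBQ and 3.24% ± 0.32 in control cells, and AKT1 2.93% ± 0.72 in DCBQ and 2.73% ± 0.34 in control cells. PIK3R2 had 2.65% ± 0.29 in DCBQ and 2.53% ± 0.32 in control cells. PIK3CA had 2.66% ± 0.6 in DCBQ and 2.86% ± 1.0 in control cells, and PIK3R1 2.18% ± 0.47 in DCBQ and 2.74% ± 0.79 in control cells, the only members with a lower mean in DCBQ. Among control samples FOXO3 and PIK3CD had the lowest body means of the 8.

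**Figure D2:**
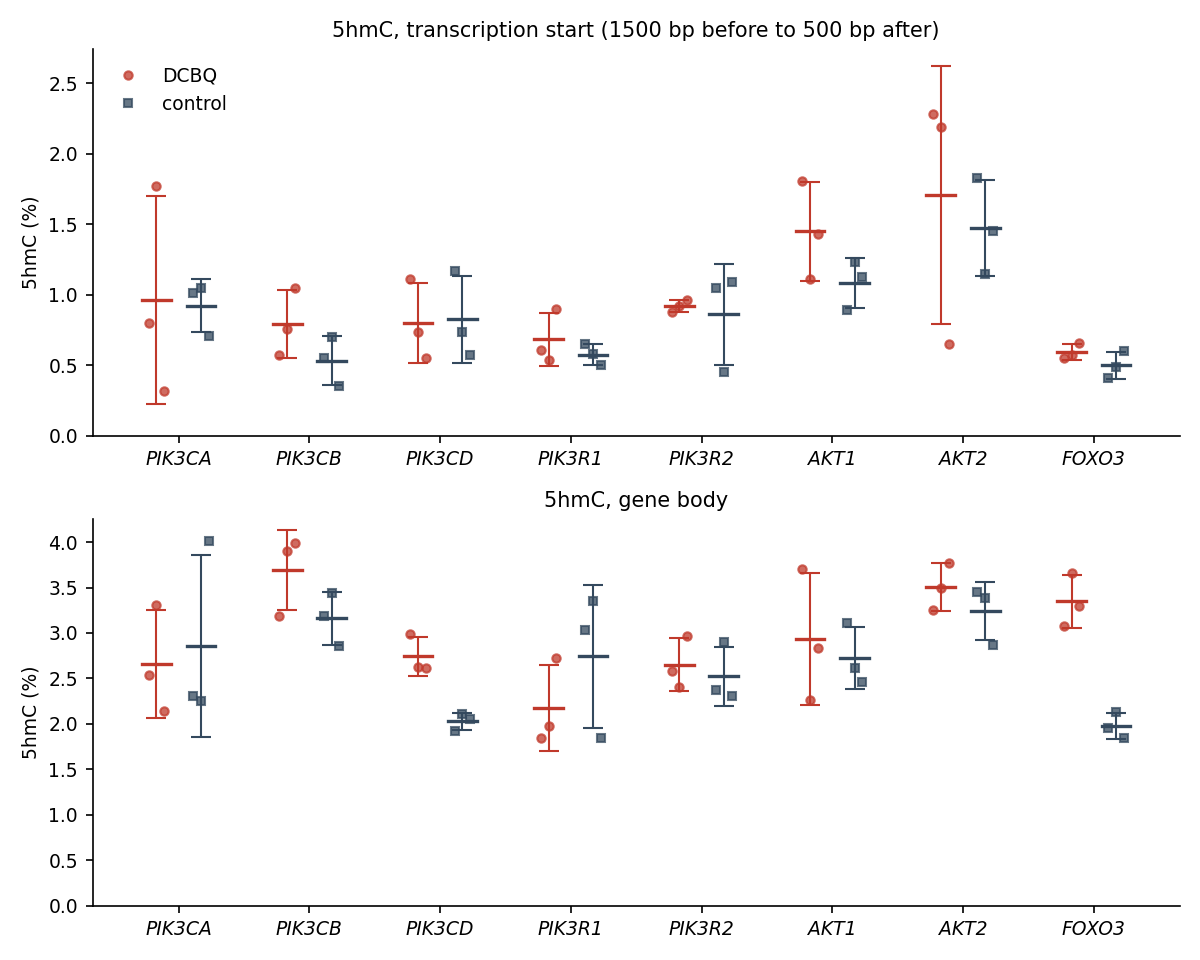
5hmC in percent (vertical axes) of the 8 genes at the start (upper plot) and in the body (lower plot). Points are samples, horizontal bars means and whiskers SD (n = 3 per group), with DCBQ on the left of each pair. In the bodies of FOXO3 and PIK3CD the 3 DCBQ samples lie above the 3 control samples, and elsewhere the groups overlap.

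**Figure D3:**
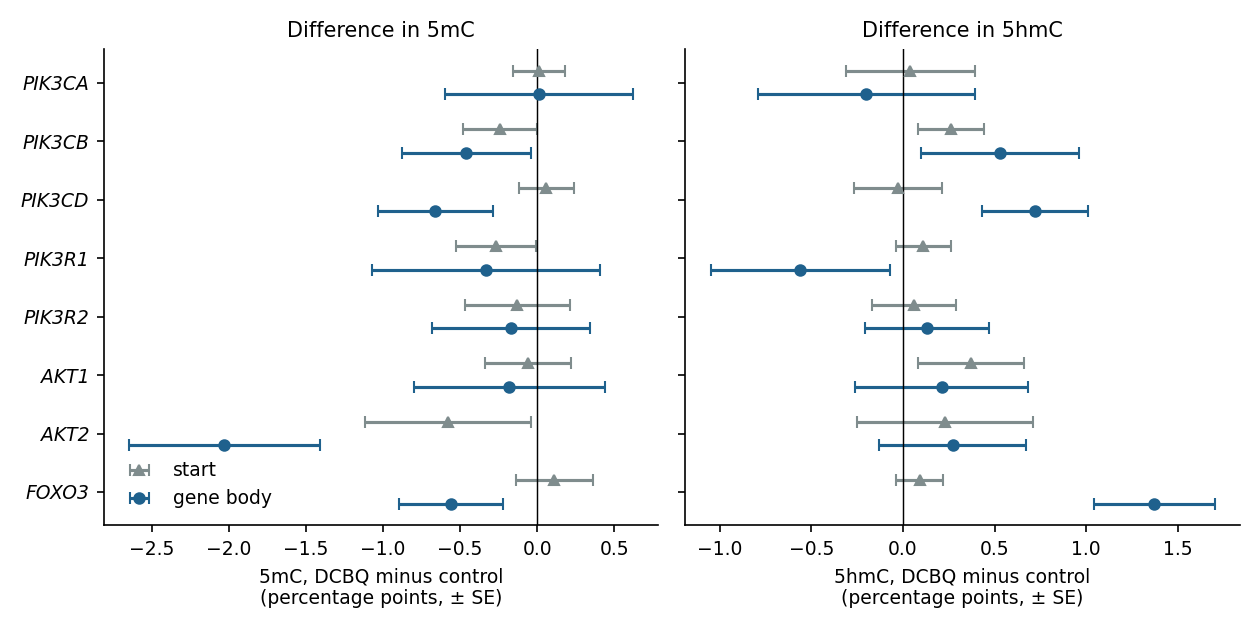
Difference of DCBQ minus control in percentage points (horizontal axes) for 5mC on the left and 5hmC on the right, by gene, with triangles for starts, circles for bodies and whiskers for the limma SE (n = 3 per group). The AKT2 body at -2.03 points of 5mC and the FOXO3 body at 1.37 points of 5hmC lie farthest from 0.

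The FOXO3 differences were concentrated in a short stretch that has a mirror image elsewhere in the genome. From 1262 to 1995 bp after the first listed start, at chr6:108561087-108561820 (734 bp), lie 89 measured CpGs. The spacing of 86 of them recurs in reverse order at chr17:18672314-18673047, inside FOXO3B, a copy of FOXO3. The next best alignment of the spacing matched 23, and in the other 7 genes at most 7 spacing patterns of 8 gaps recurred together at any other place, against 68 in FOXO3. Reads of near-identical copies could have been split between them by the alignment, so levels inside the stretch are uncertain for either gene.

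Inside the stretch FOXO3 5hmC was 6.18%, 7.34% and 5.35% in DCBQ and 3.16%, 3.54% and 2.77% in control cells. The lowest DCBQ sample was above the highest control sample, with means of 6.29% ± 1.0 in DCBQ and 3.16% ± 0.39 in control cells (SD). 5mC in the same stretch was 34.75%, 35.9% and 35.74% in DCBQ and 37.73%, 36.86% and 36.15% in control cells, again apart. The mirrored CpGs of FOXO3B had 5hmC of 4.68%, 4.52% and 1.71% in DCBQ and 5.68%, 1.36% and 4.31% in control cells, which overlap, and 5mC of 65.43% ± 1.45 in DCBQ and 65.3% ± 0.78 in control cells.

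Outside the stretch, the 180 CpGs before it averaged 1.22% 5mC in DCBQ and 1.04% in control cells, and 0.72% 5hmC in DCBQ and 0.65% in control cells. The 86 after it averaged 53.59% 5mC in DCBQ and 54.02% in control cells. 5hmC after it, over 81 CpGs, was 2.09%, 2.33% and 3.56% in DCBQ and 2.15%, 1.85% and 1.61% in control cells, which overlap. Without the stretch, an alternative chosen after seeing the data, the body differed by 0.41 points of 5hmC (SE 0.28; limma adjusted p = 0.984), with groups still apart. The 5mC body difference without it was -0.09 points (SE 0.32; limma adjusted p = 0.95), and the groups overlapped.

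The 5mC step at the near edge of the stretch is abrupt. The 30 bases at chr6:108561096-108561125 on the plus strand, from 1271 bp after the start, hold 7 CpGs, all measured and in capitals.
FOXO3 step: CGgCGccCGggagcCGgagccttCGCGgCG
The first of these CpGs averaged 0.0% 5mC in DCBQ and 1.6% in control cells, and the seventh 40.53% in DCBQ and 39.6% in control cells. At the mirrored positions in FOXO3B the first averaged 100% in both groups and the seventh 44.23% in DCBQ and 50.1% in control cells. Of the 86 matched FOXO3 CpGs, 67 lay between 20% and 80% 5mC in control cells, and at 53 of these the FOXO3B CpG did too. Outside the stretch 16 of 266 FOXO3 CpGs were in that range. Of 15 matched FOXO3 CpGs under 10%, 13 had a FOXO3B CpG over 80%. Whether shared reads contribute to these levels or to the 5hmC difference was not tested.

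**Figure D4:**
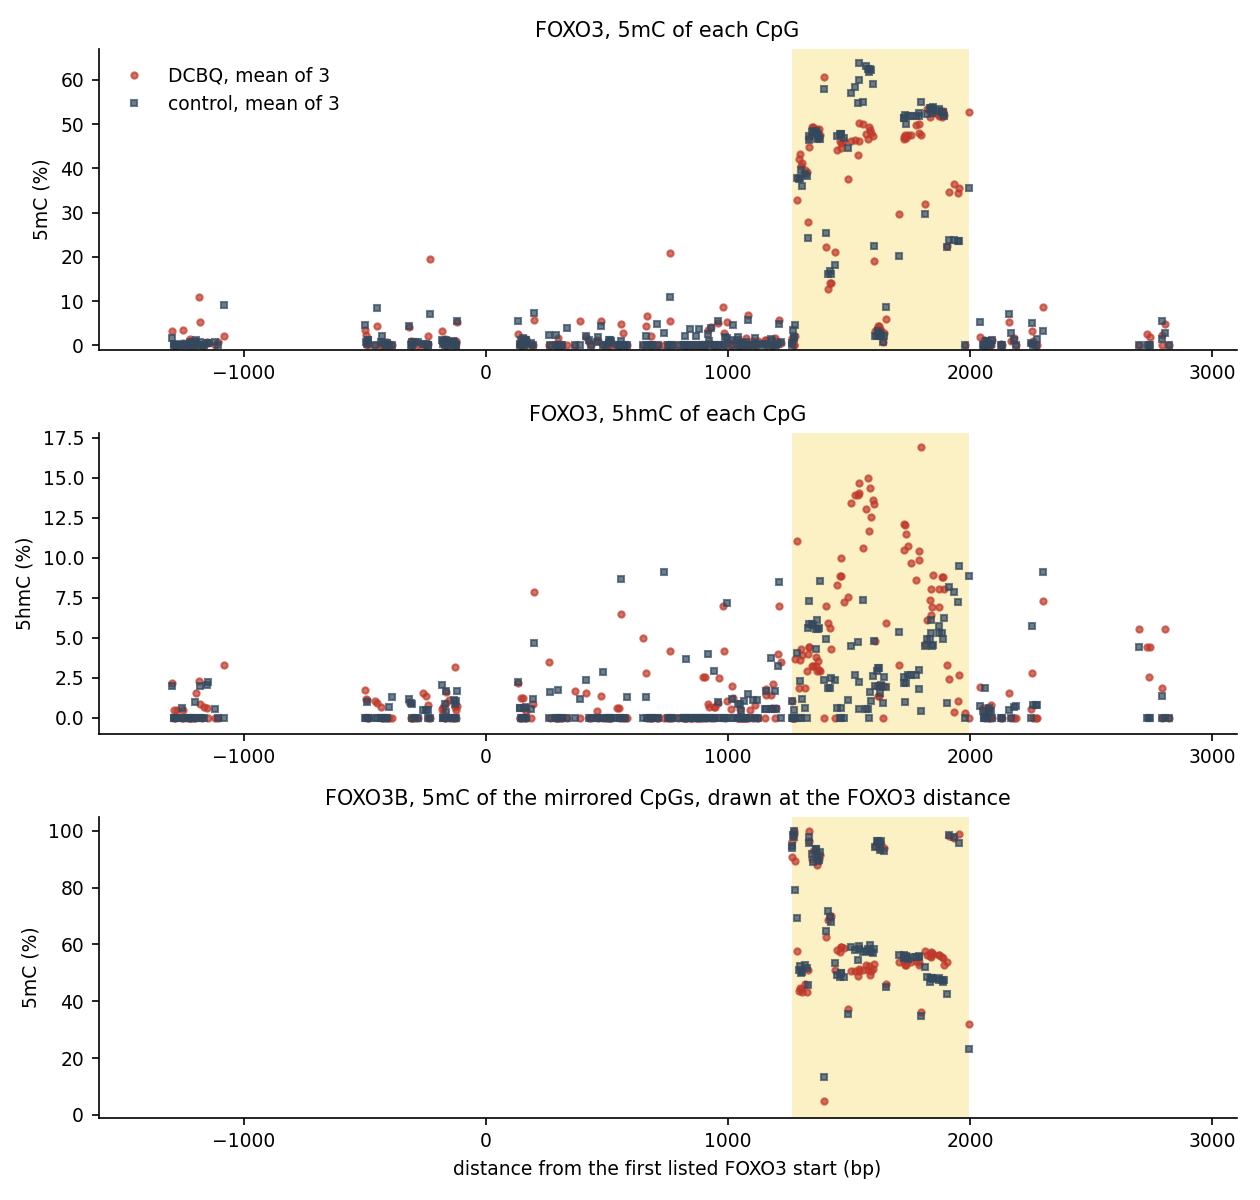
Level in percent of each CpG near the FOXO3 start against distance from the first listed start in bp, as the mean of 3 DCBQ samples (circles) and of 3 control samples (squares), with 5mC on top, 5hmC in the middle and 5mC of the mirrored FOXO3B CpGs at the bottom. The shaded band is the stretch from 1262 to 1995 bp, where FOXO3 5mC steps up from near 0 and 5hmC averages 6.29% in DCBQ and 3.16% in control cells.

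Other listed starts of the genes differed in level from the first. The second PIK3CD start, 37813 bp after the first, had 77 CpGs at 1.42% 5mC in DCBQ and 1.39% in control cells, while the third, 39736 bp after the first and with 5 CpGs, had 53.98% in DCBQ and 55.05% in control cells. The second AKT2 start was methylated, at 82.75% in DCBQ and 83.45% in control cells, and the second PIK3R1 start was intermediate, at 27.25% ± 4.31 in DCBQ and 29.11% ± 3.28 in control cells (SD). The second AKT1 start had 15.07% in DCBQ and 16.87% in control cells over 9 CpGs. The windows of the second and the third FOXO3 starts reach into the mirrored stretch. They share most of their CpGs with each other and many with the body, so they are not separate results. Their 5hmC was 2.11% ± 0.36 in DCBQ and 1.18% ± 0.03 in control cells at the second, and 2.98% ± 0.4 in DCBQ and 1.49% ± 0.11 in control cells at the third. Over all 16567 listed starts 5.5% were apart with DCBQ higher for 5hmC, and 0 were called.

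Of 120 tiles of 1 kb with at least 5 CpGs in the 8 genes, 0 passed for 5mC. Groups were apart with DCBQ lower in 13 (10.8%), against 8.11% of 210465 tiles, and with DCBQ higher in 6 (5.0%), against 3.38%. At an unadjusted p under 0.05 were 9 (7.5%), against 6.2%. For 5hmC, 0 of 115 tiles passed. Groups were apart with DCBQ higher in 7 (6.09%), against 5.55% of 201935 tiles, and with DCBQ lower in 4 (3.48%), against 4.39%, so the member tiles stayed near the background. At an unadjusted p under 0.05 were 5 (4.35%), against 4.83%. Limma called 0 of all tiles for either mark.

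PIK3CD held 4 of the 13 lower 5mC tiles and 34 of the 120 tested. Its share of lower tiles, 11.8%, was near the 10.8% over the 8 genes. Its tile with the smallest p lies in the flank before the gene span, begins at position 9626001 of chromosome 1, at -25730 bp from the first start, and read 2.38%, 3.6% and 4.08% in DCBQ and 5.9%, 8.28% and 7.66% in control cells (limma adjusted p = 0.714). A tile inside the gene, from 9720001, differed in both marks. Its 12 CpGs had 5mC of 81.52%, 80.55% and 78.89% in DCBQ and 84.12%, 84.37% and 86.87% in control cells. Its 5hmC was 4.44%, 4.95% and 9.29% in DCBQ and 2.15%, 2.73% and 1.0% in control cells, a difference of 4.27 points (SE 1.58; limma adjusted p = 0.973). The groups were apart for both marks there, in opposite directions, with one DCBQ sample well above the others in 5hmC. Both marks may rest on the same oxidative libraries, so they are not independent readings.

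AKT2 had its largest tile difference 25345 bp inside the gene, in the tile from 40259001 of chromosome 19 with 5 CpGs. It read 55.2%, 59.84% and 51.78% 5mC in DCBQ and 64.78%, 75.32% and 65.86% in control cells, a difference of -13.05 points (SE 3.57; limma adjusted p = 0.73). All DCBQ samples were below all controls, so leaving a sample out could not reverse the sign. The difference ranged from -15.16 to -9.71 with each sample left out in turn. The tile from 40259001 had fewer than 5 CpGs of 5hmC and was not tested for it. Its 5hmC in DCBQ and control cells was 3.03% and 1.89% at 40259874, and 8.62% and 0.0% at 40259880. It was 9.28% and 3.37% at 40259918, and 0.33% and 1.14% at 40259927. The AKT2 5hmC tile with the smallest p, from 40274001, overlapped between groups at 4.37% ± 2.11 in DCBQ and 1.97% ± 1.0 in control cells (SD).

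**Figure D5:**
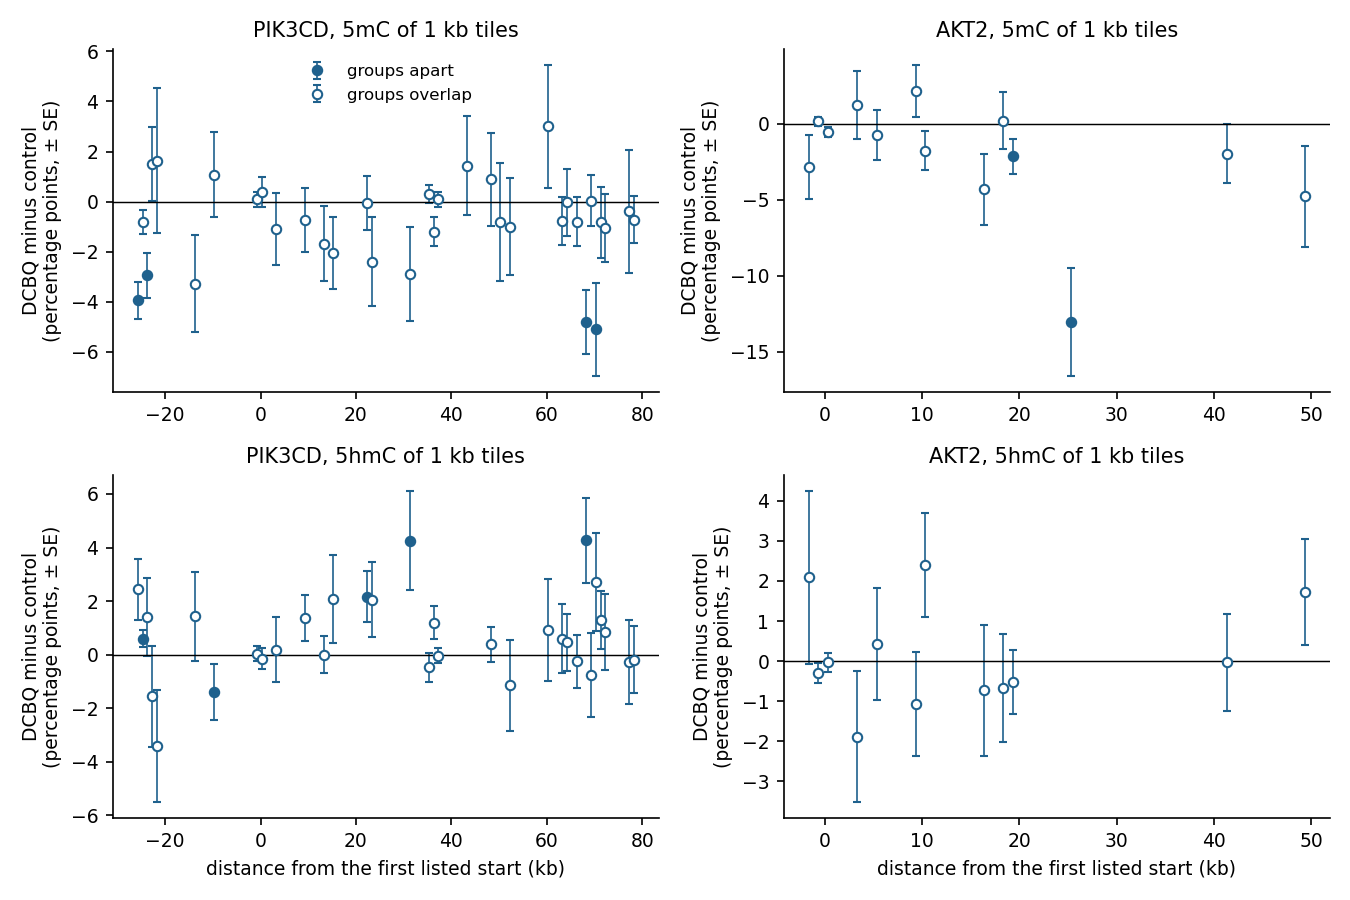
Difference of DCBQ minus control in percentage points (vertical axes, limma SE as whiskers, n = 3 per group) for each 1 kb tile of PIK3CD on the left and AKT2 on the right, 5mC above and 5hmC below, against distance from the first listed start in kb. Filled circles are tiles whose groups do not overlap. The AKT2 tile at -13.05 points and the PIK3CD tile with 5mC lower and 5hmC higher near 68 kb stand out.

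Among tiles of the other genes, PIK3CB, from 138795001 of chromosome 3, had 82.38% ± 2.7 5mC in DCBQ and 87.83% ± 1.41 in control cells (SD), and from 138810001 its 5hmC was 0.98% ± 0.42 in DCBQ and 3.12% ± 0.51 in control cells, both with DCBQ lower and the groups apart. PIK3R2, from 18158001 of chromosome 19, had 74.18% ± 2.0 5mC in DCBQ and 77.86% ± 0.84 in control cells. AKT1, from 104776001 of chromosome 14, had 86.01% ± 0.73 5mC in DCBQ and 83.55% ± 0.31 in control cells. Of its 18 5mC tiles 4 were apart with DCBQ higher and 2 with DCBQ lower, against 3.38% and 8.11% of all tiles. The limma adjusted p of the named PIK3CB, PIK3R2 and AKT1 tiles lay between 0.744 for PIK3CB 5mC and 0.973 for PIK3CB 5hmC. The smallest-p 5mC tiles of PIK3CA, 94.52% in DCBQ and 92.97% in control cells, and FOXO3, 85.05% in DCBQ and 87.15% in control cells, overlapped. The PIK3R1 tile just after the gene had 88.56% ± 0.57 in DCBQ and 87.29% ± 0.44 in control cells and was apart.

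Of the remaining 5hmC tiles with the smallest p, FOXO3 alone had groups apart. The FOXO3 tile from 108561001, which holds the mirrored stretch, had 5.19%, 6.03% and 4.48% in DCBQ and 2.64%, 3.11% and 2.41% in control cells, and was apart (limma adjusted p = 0.973). PIK3R2 had 5.3% ± 2.81 in DCBQ and 2.39% ± 0.94 in control cells (SD), PIK3CA 3.83% ± 0.87 in DCBQ and 5.53% ± 1.8 in control cells, and PIK3R1 4.84% ± 0.43 in DCBQ and 6.12% ± 2.16 in control cells. In AKT1 a tile of 5 CpGs was listed at 0 in the 3 DCBQ samples and at 2.76%, 0.0% and 2.22% in control cells. These 4 overlapped between groups.

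At single CpGs, 0 of the 1964 member CpGs whose 5mC varied passed. Groups were apart with DCBQ lower at 110 (5.6%), against 4.66% of 3419211 CpGs, and with DCBQ higher at 38 (1.93%), against 3.36%. At an unadjusted p under 0.05 were 96 (4.89%), against 4.69%, and limma called 0 of all CpGs. For 5hmC, 0 of 1823 passed, while 1 CpG passed in the whole table (3.17e-05%). At an unadjusted p under 0.05 were 27 (1.48%), against 1.88%. Groups were apart with DCBQ higher at 66 (3.62%), against 3.14% of 3153543 CpGs, and with DCBQ lower at 24 (1.32%), against 2.9%. FOXO3 held 17 of the 66 CpGs with higher 5hmC, PIK3CD 13 and AKT1 12. These were 6.44% of the 264 tested in FOXO3, 3.39% of 383 in PIK3CD and 4.2% of 286 in AKT1. The PIK3CD share was near that over all CpGs. The FOXO3 count includes the mirrored stretch, where levels are uncertain, and was not split by it. Mean FOXO3 5hmC differed by 3.13 points within the stretch, 0.07 before it and 0.79 after it.

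Near the starts of PIK3R2 and AKT2 a CpG was listed at 0 in all DCBQ samples. At PIK3R2, at -12 bp from the start (chromosome 19, 18153151), 5mC was 0.0% in each DCBQ sample and 13.3%, 15.0% and 6.2% in control cells (limma adjusted p = 0.875). At AKT2, at -406 bp from the start (40285751), it was 0.0% in each DCBQ sample and 13.6%, 16.7% and 5.3% in control cells (limma adjusted p = 0.903). The authors' minimum is 5 reads per CpG, so a level of this size can rest on very few reads. The mean over each start window, in which these CpGs are counted, did not separate the groups.

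Away from the starts, PIK3CB had a CpG in its body (138804917) at 83.3%, 80% and 90.9% 5mC in DCBQ and 100% in each control sample. AKT1 had one in its body (104789089) at 69.7%, 71.4% and 75.8% in DCBQ and 91.7%, 84.2% and 91.8% in control cells. PIK3CD had one in the flank before the gene span, -25238 bp from the first start (9626493), at 5.9%, 5.9% and 8.7% in DCBQ and 15.0%, 22.2% and 27.3% in control cells. In these 3 all DCBQ samples were lower, and in PIK3R1 a CpG after the gene (68302315) was lower too, at 90.97% in DCBQ and 98.13% in control cells. PIK3CA (179212303), at 87.47% in DCBQ and 72.8% in control cells, and FOXO3 (108558645, before the start), at 5.4% in DCBQ and 0.7% in control cells, were higher. The limma adjusted p of these 6 ran from 0.875 to 0.928.

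The 5hmC CpG with the smallest p in FOXO3 lay inside the mirrored stretch (108561621), at 28.12%, 5.26% and 17.46% in DCBQ and 0.0%, 0.0% and 1.19% in control cells. In PIK3CB it was listed at 0 in DCBQ and at 11.11%, 12.5% and 22.22% in control cells (138810792), and in AKT2 at 2.05%, 4.76% and 19.05% in DCBQ and at 0 in control cells (40259880). In PIK3R2 it was listed at 0 in DCBQ and at 7.41%, 25.0% and 4.0% in control cells (18161135). Those of PIK3CA, PIK3CD, PIK3R1 and AKT1 were at 0 in at least 1 sample of each group, so their groups overlapped. The limma adjusted p was 0.786 at all 8.

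Many member CpGs did not vary at all. For 5mC 245 of 2209 (11.1%) were equal in the 6 samples, against 7.33% of the table, and for 5hmC 349 of 2172 (16.1%), against 10.8%. All of those 349 were 0 in every sample. By level, 980 member CpGs were under 20% 5mC, 321 from 20% to 80% and 908 at 80% or more in DCBQ, against 978, 319 and 912 in control cells. For 5hmC, 7 member CpGs reached 20% in DCBQ and 2 in control cells. The mean over all member CpGs was 47.45% ± 0.11 5mC in DCBQ and 47.87% ± 0.09 in control cells (SD), a difference of -0.42 points, equal to that over the whole table. For 5hmC it was 2.52% ± 0.04 in DCBQ and 2.15% ± 0.11 in control cells, a difference of 0.38 points against 0.1 over the table, or 0.26 with the FOXO3 stretch left out.

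Of 70 other genes of the pathway, 57 had at least 5 CpGs over the span, and 0 passed for either mark. 5mC was lower in DCBQ at 40 and higher at 17, against 69.8% of all spans lower. Groups were apart at 8, all lower, against 13.6% of all spans lower and 2.48% higher. The median was -0.17 points against -0.26 over all genes. 5hmC was higher at 35 and lower at 22, against 42.8% of all spans lower. Groups were apart at 4, all higher, against 6.47% of all spans higher and 3.48% lower. The median was 0.14 points against 0.06. Both counts of genes apart lie near these background shares. The 10 measured genes of other PI3K subunits and PI3K-interacting proteins had 0 apart for either mark, with PIK3C2B at 55.45% 5mC in DCBQ and 55.87% in control cells. PIK3R4, which serves the class III kinase, had 3.63% 5hmC in DCBQ and 2.85% in control cells.

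Among 8 measured phosphatases that oppose the pathway, 2 were apart with lower 5mC, against 13.6% of all spans, and 1 with higher 5hmC, against 6.47%. INPP5D, the lipid phosphatase SHIP1, had 81.53%, 82.31% and 81.69% in DCBQ and 82.73%, 83.47% and 82.61% in control cells, and the scaffold PPP2R1A overlapped for 5hmC, at 2.01% in DCBQ and 1.43% in control cells. Among 7 kinases and partners of AKT, 2 were apart with lower 5mC, against the same 13.6%. The AKT coactivator TCL1A had 64.74%, 65.91% and 65.6% in DCBQ and 67.54%, 67.8% and 66.91% in control cells (limma adjusted p = 0.423), and the AKT inhibitor TRIB3 overlapped for 5hmC, at 2.44% in DCBQ and 1.84% in control cells.

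Of 10 substrates and mTORC1 genes, 3 were apart with lower 5mC, against 13.6% of all spans, among them the kinase GSK3B at 52.65% in DCBQ and 53.27% in control cells. The S6 kinase gene RPS6KB1 was the 1 apart with higher 5hmC, against 6.47% of spans, at 2.97% in DCBQ and 2.24% in control cells. The 6 measured upstream receptor and adaptor genes had 0 apart. Among them IRS2 had 37.79% 5mC in DCBQ and 38.21% in control cells, with 1.76% 5hmC in DCBQ and 1.55% in control cells. The 3 other FOXO genes had 0 apart. FOXO6 had 36.54% 5mC in DCBQ and 38.47% in control cells, with 4.18% 5hmC in DCBQ and 3.89% in control cells.

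Among 13 measured FOXO targets, 1 was apart with lower 5mC, against 13.6% of all spans, and 2 with higher 5hmC, against 6.47%. BNIP3, a mitophagy receptor, had 20.31%, 20.09% and 20.44% 5mC in DCBQ and 23.27%, 22.37% and 22.57% in control cells, a difference of -2.45 points (SE 0.31; limma adjusted p = 0.306). CAT, the hydrogen peroxide-degrading catalase, had 2.46%, 3.38% and 2.19% 5hmC in DCBQ and 1.11%, 1.33% and 2.09% in control cells (limma adjusted p = 0.95).

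The gene most like each member in 5mC was found by the root mean square distance over 12 values, the start and the body in 6 samples, among 10948 other genes. PIK3CB was nearest to CARS2 at 0.33 points, FOXO3 to LONRF2 at 0.33, PIK3CA to NARF at 0.4 and PIK3CD to BOC at 0.41. PIK3R1 was nearest to PHF13 at 0.57, PIK3R2 to NOVA2 at 0.63, AKT1 to POLRMT at 0.67 and AKT2 to AMBRA1 at 1.0.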

How the data were processed

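DNA of SV-HUC-1 cells was read by RRBS and oxidative RRBS, with 12 libraries in 4 groups of 3. Per the labels' protocols, a QIAamp kit gave the DNA, and the Ovation RRBS Methyl-Seq and TrueMethyl oxBS kits gave the libraries. Per the submitters' processing notes, reads were handled with BSMAP 2.90, cutadapt and Trim Galore on build hg38. The authors deposited a fraction from 0 to 1 per CpG for each mark, with at least 5 reads per CpG per the file names, and these are given as percent. How the libraries were combined into 5mC and 5hmC, and the read depth, are stated nowhere in the sources used. Columns of other samples numbered 0.

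Members and lists were chosen with earlier results of these data known. Gene spans came from RefSeq (GRCh38.p14), and starts and strands from its promoter table, which lists 15842 of the 20037 protein-coding genes. Mean levels of units with at least 5 CpGs, and single CpGs that varied, were tested across the whole table with lmFit and trended eBayes of limma 3.58.1 (R 4.3.3) on the untransformed level, with Benjamini-Hochberg adjustment and a threshold of 0.05, for CpGs also a difference of 10 points. Groups are apart when no DCBQ sample overlaps a control sample. An exact permutation test of 3 against 3 samples cannot go below 0.1. The fit was tested on simulated bodies, some of them shifted by 10 points. No member body differed by that much, so this says nothing about how well smaller differences are found. Copies were sought by matching the gaps between neighbouring CpGs.

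All 8 members were named in every region, with the tile and CpG of smallest p per member and mark, and from each pathway sub-list the gene of smallest p over the span. The AKT2 body CpGs at 40254398, 40268916 and 40254452 were named for the size of their 5mC difference instead. Columns with the same number did not deviate together (correlations over 1 kb tiles from -0.035 to 0.009), so the fit had no block. Python 3.11.15, numpy 2.4.6, pandas 2.3.3, scipy 1.17.1 and matplotlib 3.10.9 gave the other values and plots.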

Additional observations from a re-analysis of the deposited data

How the results depend on the processing

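With 3 samples a group and no deposited depth, single genes were tested with little precision, and a stricter read minimum was not run because the tables give no depth. No member passed the threshold in any alternative. The calls over all genes stayed at 0 for 5mC in every alternative. For 5hmC, 1 start was called with the arcsine square root and 0 to 1 with 1 sample left out. For 5hmC at single CpGs, where 1 was called, 0 were called with the arcsine square root, 0 with the replicate block, 0 to 0 with 1 sample left out, and 4 when only CpGs between 0 and 1 in at least 2 samples were tested. The cause was not tested. The replicate block otherwise changed no call. It left 1 of the 8 members under an unadjusted p of 0.05 for 5mC bodies, as without it, and 1 for 5hmC bodies, where 2 were without it. No column correlated best with its own number in the other group in all 3 pairs for either mark.

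Directions of small differences changed, in percentage points of DCBQ minus control. Centring each sample on its mean over all units gave for 5mC 0.02 at PIK3R2 and 0.09 at AKT1 starts, 0.11, 0.26 and 0.26 in the bodies of PIK3R1, PIK3R2 and AKT1, and 0.13, 0.15 and 0.07 over their spans. It gave -0.02 for 5hmC at the PIK3CA start. The 500 bp window gave -0.03 for 5mC at FOXO3 and -0.21 for 5hmC at AKT2, and the arcsine scale -0.0028 for 5hmC at PIK3CA. The difference of the mean over all member CpGs was -0.48 to -0.37 for 5mC and 0.32 to 0.42 for 5hmC with 1 sample left out.

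With 1 sample left out, directions changed at these members. For 5mC at starts the ranges were PIK3CA -0.1 to 0.11, PIK3CD -0.04 to 0.17, PIK3R2 -0.35 to 0.17, AKT1 -0.2 to 0.07 and FOXO3 -0.15 to 0.24. In bodies they were PIK3CA -0.52 to 0.29, PIK3R1 -0.94 to 0.29, PIK3R2 -0.45 to 0.18 and AKT1 -0.48 to 0.36. Over spans they were PIK3CA -0.33 to 0.18, PIK3R1 -0.43 to 0.07, PIK3R2 -0.39 to 0.11 and AKT1 -0.53 to 0.19. For 5hmC at starts they were PIK3CA -0.37 to 0.36, PIK3CD -0.19 to 0.14, PIK3R1 -0.0 to 0.18, PIK3R2 -0.15 to 0.17 and AKT2 -0.05 to 0.76. In bodies they were PIK3CA -0.52 to 0.38, PIK3R2 -0.03 to 0.31 and AKT1 -0.17 to 0.54. Over spans they were PIK3CA -0.47 to 0.22, PIK3R2 -0.01 to 0.2 and AKT1 -0.09 to 0.55. FOXO3 and PIK3CD 5hmC bodies and the AKT2 5mC body kept their direction in every alternative run. Their groups were apart, so leaving a sample out could not have reversed it. Without the mirrored stretch the FOXO3 value was 0.41 points. Bodies with overlapping groups also kept direction with 1 sample left out, such as PIK3CB 5mC (-0.59 to -0.32) and PIK3R1 5hmC (-1.01 to -0.26). Centred, AKT2 differed by -1.59 points of 5mC, PIK3CD by -0.23 and FOXO3 by -0.12, and FOXO3 5hmC by 1.26.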
